A study of Mus musculus with 6 samples.

Results

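The 8 genes described here are complement genes of myeloid cells, read in osteoclasts (OCs) of WT and Dcir-/- mice: the 3 chains of C1q (C1qa, C1qb and C1qc), the central component C3, factor B (Cfb), properdin (Cfp) and the anaphylatoxin receptors C3ar1 and C5ar1. They were taken by symbol from a deposited table of 21492 genes, and all 8 were found. Levels are given in CPM, the adjusted read count scaled to a common library size. Each gene was at 1 CPM or more in all 6 libraries, so all 8 were among the 14047 genes tested. All 8 had a lower mean level in Dcir-/- OCs, and C1qa and C1qc passed the test after adjustment over all tested genes.

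OCs are multinucleated cells that resorb bone. Those of both groups were grown from BMMs, the macrophages of cultured bone marrow. The cultures held M-CSF at 20 ng/ml, a growth factor of macrophages, and RANKL at 100 ng/ml, the cytokine that drives OC formation. Poly-A RNA of 3 WT libraries, numbered 3, 82 and 94, was compared with that of 3 Dcir-/- libraries, numbered 21, 22 and 83. The methods give 2 days of M-CSF followed by 4 days with RANKL, whereas by the sample labels RANKL was given for 2 days and cells were taken on day 4. The Dcir-/- mice lack Dcir, listed as Clec4a2, in every cell, had been backcrossed for 12 generations to C57BL/6J and were used at 8 to 12 weeks of age. WT mice were C57BL/6J from a supplier, matched to the mutants for age and sex and kept in the same rack before use. Genotype and origin of the mice therefore cannot be told apart. No source used here says whether the libraries of a group are separate mice or cultures, so the p-values below reflect a spread that could be technical.

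Complement is a set of blood and tissue proteins that mark particles for removal and call in leukocytes. C1q, built from equal numbers of A, B and C chains, starts the classical pathway by binding antibody complexes or dying cells. C3 is cleaved where all pathways meet. Factor B and properdin serve the alternative pathway, in which factor B supplies the active protease and properdin stabilizes the enzyme. The fragments C3a and C5a act through C3AR1 and C5AR1 on myeloid cells. Most plasma complement is made in the liver, whereas C1q and properdin come mainly from myeloid cells, and macrophages are a main source of C1q. In culture, C3a and C5a are known to promote OC formation from human precursors.

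The C1q chains lie next to each other on chromosome 4 of mm10 (GRCm38), all on the minus strand: C1qb at chr4:136880129-136886187, C1qc at chr4:136889804-136893065 and C1qa at chr4:136895917-136898803. Gaps of 3.62 kb and 2.85 kb separate them. C3 lies at chr17:57203970-57228136, Cfb at chr17:34856374-34862518, C3ar1 at chr6:122847138-122856161, C5ar1 at chr7:16246743-16259540 and Cfp at chrX:20925454-20931555. Promoter windows of 6 members were matched in RefSeq (GRCm38.p6). The bases just before the start of C1qb, C1qc and C3 are shown. The first pair are neighbours whose levels rise and fall alike across libraries, while C3 is a component with its own promoter elsewhere. Each is written 5′ to 3′ on the minus strand, and capitals mark motif matches. The C1qc stretch is shorter because it stops before the earlier of its annotated starts.
C1qb: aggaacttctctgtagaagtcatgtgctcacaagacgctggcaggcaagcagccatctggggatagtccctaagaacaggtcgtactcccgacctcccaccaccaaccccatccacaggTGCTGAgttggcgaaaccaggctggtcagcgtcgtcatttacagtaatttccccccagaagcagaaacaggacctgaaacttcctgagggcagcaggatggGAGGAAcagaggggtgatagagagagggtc
C1qc: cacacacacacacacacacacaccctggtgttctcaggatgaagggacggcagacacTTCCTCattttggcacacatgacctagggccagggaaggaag
C3: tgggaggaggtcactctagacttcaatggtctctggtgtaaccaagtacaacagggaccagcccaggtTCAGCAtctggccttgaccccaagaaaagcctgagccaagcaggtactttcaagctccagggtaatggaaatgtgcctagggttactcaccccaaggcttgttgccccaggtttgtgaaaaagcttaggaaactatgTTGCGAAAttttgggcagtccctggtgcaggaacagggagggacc
They come from chr4:136886201-136886450, chr4:136893066-136893164 and chr17:57228137-57228386. Both strands were searched for 4 motifs, which were chosen after these sequences had been seen. TGCTGA, the half-site of MAF factors, began 131 bases before the RefSeq start in C1qb and 182 bases before it in C3, where it reads TCAGCA on the strand shown. It also began 144 bases before the RefSeq start in C3ar1 and 17 bases before that in C5ar1. The match in C5ar1 lies within the gene span given above, which reaches further than the RefSeq start. In RefSeq windows, 4 of the 6 matched members hold TGCTGA, that of C5ar1 included. It was found in 16.1% of all 32536 promoter windows. GAGGAA, a core bound by the myeloid factor PU.1, began 30 bases before the RefSeq start in C1qb and 193 bases before that in C1qc. In C1qc it reads TTCCTC, and none of the other 4 holds it. The C1qc stretch shown ends before its RefSeq start, which lies within the gene span, so that distance cannot be counted along it. That motif was found in 23.4% of windows. The C/EBP site TTGCGNAA was found only in C3 among the 6 matched members, 45 bases before its start, and in 0.676% of all windows. AAANNGAAA, a core of interferon regulatory factors, was found only in C3ar1 among the 6 and in 9.35% of windows. A match is a description of the letters and not evidence of binding.

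The gene table separated the genotypes as labelled. Clec4a2 stood between 239 and 289 CPM in WT libraries and between 0.496 and 1.15 CPM in Dcir-/- libraries. Over all genes, the first principal component held 53.5% of the variance and set WT library 3 (−35.3) apart from the others. Dcir-/- library 21 lay at its other end (22.4). The second component held 27.5% and set WT library 94 apart. Of the 14047 genes tested, 41 were called lower in Dcir-/- OCs and 21 higher by limma at an adjusted p (Benjamini-Hochberg) under 0.05, a background of 0.292% lower and 0.149% higher. OC markers were abundant in both groups, all 12 listed ones passing the filter on low values. Their summed level was 17870 to 20232 CPM in WT and 18267 to 23854 CPM in Dcir-/- OCs. Mmp9, Acp5 and Ctsk, a gelatinase, the TRAP enzyme and the main collagen-degrading protease of OCs, were the most abundant of them. Of the 12, 11 had a higher mean in Dcir-/- OCs, beside 46.1% of tested genes with a lower one, and 0 were called. At an unadjusted p under 0.05, 4 were higher, beside 5.82% of tested genes, and 5 were higher with no overlap between groups, beside 10.5%. Their median log2 fold change was 0.13. In bulk cultures such as these, fewer cells of a type and less RNA per cell cannot be told apart.

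The C1q chains had the largest fold changes of the 8 members, the WT mean being 2.52 to 2.68 times the Dcir-/- mean. C1qa, the A chain, stood at 149, 107 and 116 CPM in WT libraries 3, 82 and 94. In Dcir-/- libraries 21, 22 and 83 it stood at 36.3, 49.9 and 52.4 CPM. Every WT library was far above every Dcir-/- library, and the group means were 124 ± 22.3 and 46.2 ± 8.66 CPM (SD, n = 3 each). C1qb, the B chain, had 475, 306 and 288 CPM in the WT libraries. Its Dcir-/- libraries had 100.1, 157 and 167 CPM. WT library 3 was far above the other WT libraries, and still the groups did not overlap, with means of 356 ± 103 and 141 ± 36.0 CPM (SD, n = 3 each). C1qc, the C chain, had 329.7, 215 and 198 CPM in the WT libraries. Its Dcir-/- libraries had 71.99, 105 and 108 CPM. Again WT library 3 was the highest and Dcir-/- library 21 the lowest, and the means were 248 ± 71.7 and 95.2 ± 20.1 CPM (SD, n = 3 each).

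In the limma fit on log2(CPM + 1), the log2 fold change of Dcir-/- over WT OCs was −1.41 for C1qa, with an SE of 0.16 and an adjusted p of 0.0171. For C1qc it was −1.36 (SE 0.21, adjusted p = 0.0452), just inside the threshold. For C1qb it was −1.33 (SE 0.23) and the adjusted p of 0.0633 missed the threshold, although the unadjusted p was 3.56e-04. The 95% intervals were −1.78 to −1.03 for C1qa, −1.84 to −0.87 for C1qc and −1.85 to −0.80 for C1qb, and they overlap almost wholly. The calls changed when single libraries were left out. C1qa was called without WT library 3 (adjusted p = 0.00215) or WT library 94 (adjusted p = 0.0227). It was not called without WT library 82 (0.0704) or without Dcir-/- library 21 (0.0659), 22 (0.0989) or 83 (0.112), all adjusted p. C1qc followed the same pattern, with adjusted p of 0.00644 and 0.0316 without WT libraries 3 and 94. Without WT library 82, the adjusted p of C1qc was 0.145, and without Dcir-/- libraries 21, 22 and 83 it was 0.184, 0.170 and 0.185. In these fits, genes called lower over all were 3, 5, 1 and 3, against 41 with all libraries. Without WT library 3, the library that stands apart, C1qb was called as well (adjusted p = 0.0169). With any other library left out, C1qb was not called (adjusted p of 0.0519 to 0.221). The call of C1qc was also lost with a pseudocount of 5 CPM, a filter of 5 CPM, robust variance, array weights or no trend (adjusted p of 0.0523 to 0.0869). The log2 fold changes themselves stayed between −1.51 and −1.10 for the 3 chains whichever library was left out.

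**Figure D1:**
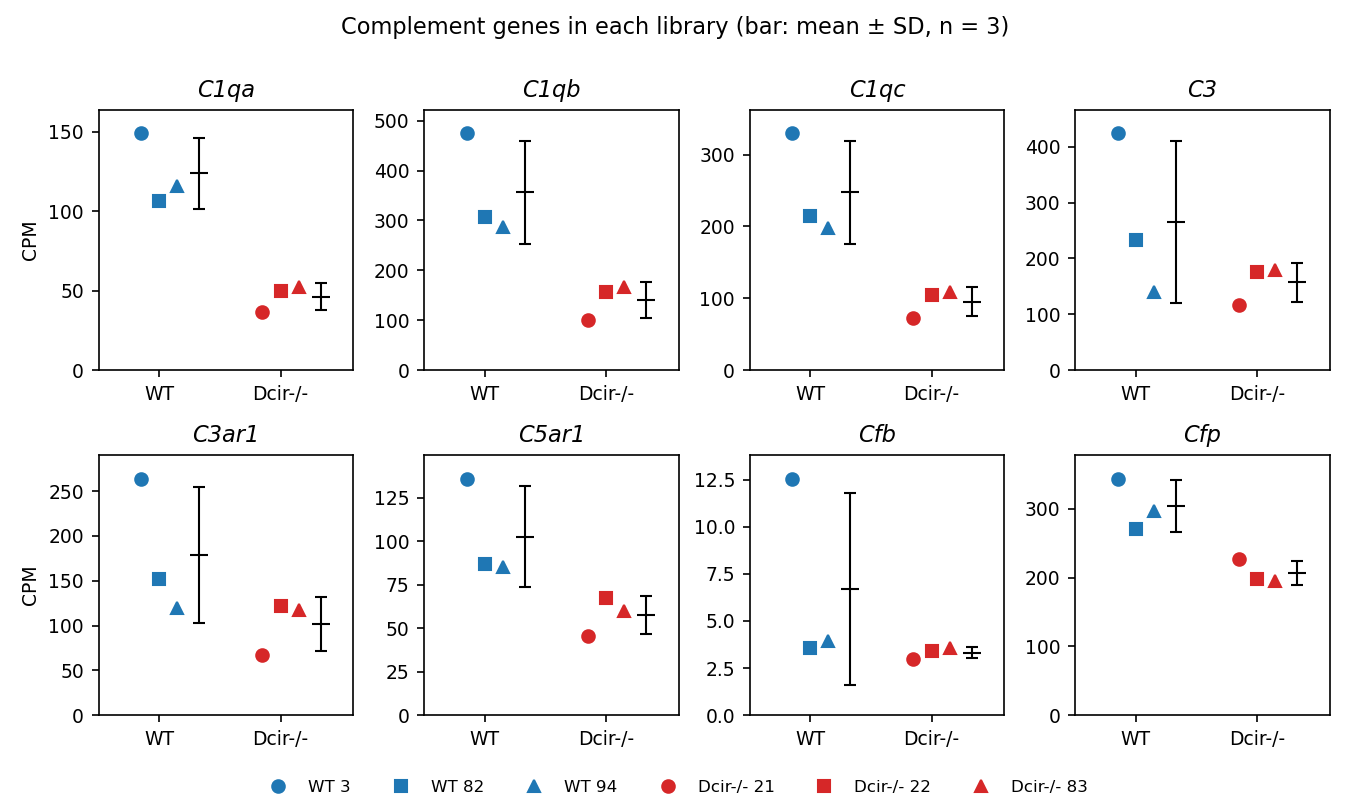
Level of each of the 8 complement genes in CPM (vertical axis, from 0, its own scale in each panel) in the WT libraries 3, 82 and 94 (blue) and the Dcir-/- libraries 21, 22 and 83 (red), with the mean and SD of each group (n = 3) as black bars. The 3 C1q chains, C5ar1 and Cfp show no overlap between groups, C3 and C3ar1 overlap, Cfb is high in WT library 3 only, and WT library 3 is the highest point in every panel.

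No shift in the balance between the C1q chains was detected. Per kb of exon, C1qb was the most abundant chain in every library, at 265 to 436 CPM per kb in WT and 92.0 to 153 CPM per kb in Dcir-/- OCs. C1qa was at 103 to 143 CPM per kb in WT and 34.9 to 50.4 CPM per kb in Dcir-/- OCs. C1qc, with 102 to 171 CPM per kb in WT and 37.3 to 56.1 CPM per kb in Dcir-/- OCs, could not be told from C1qa by these ranges. The log2 ratio of C1qb to C1qc in CPM was 0.53 ± 0.017 in WT and 0.56 ± 0.076 in Dcir-/- OCs (SD, n = 3). That of C1qb to C1qa was 1.501 ± 0.18 and 1.597 ± 0.12, and that of C1qc to C1qa 0.98 ± 0.19 and 1.04 ± 0.045. The differences in log2 ratio were 0.034, 0.095 and 0.062, and no difference was detected by the two-sided exact permutation test (p = 0.5, 0.6 and 0.8, each 0.8 after adjustment over the 3 ratios). With 3 libraries against 3 that test cannot give a p under 0.1. The differences moved with single libraries. For C1qc to C1qa it was −0.041 without WT library 94 and 0.15 without WT library 3. For C1qb to C1qa it was 0.0013 without WT library 94, 0.18 without WT library 3, 0.16 without Dcir-/- library 21 and 0.058 without Dcir-/- library 83. For C1qb to C1qc it was 0.0016 without Dcir-/- library 83 and 0.075 without Dcir-/- library 21, where the two-sided exact permutation p was 0.1, the smallest that these libraries allow.

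**Figure D2:**
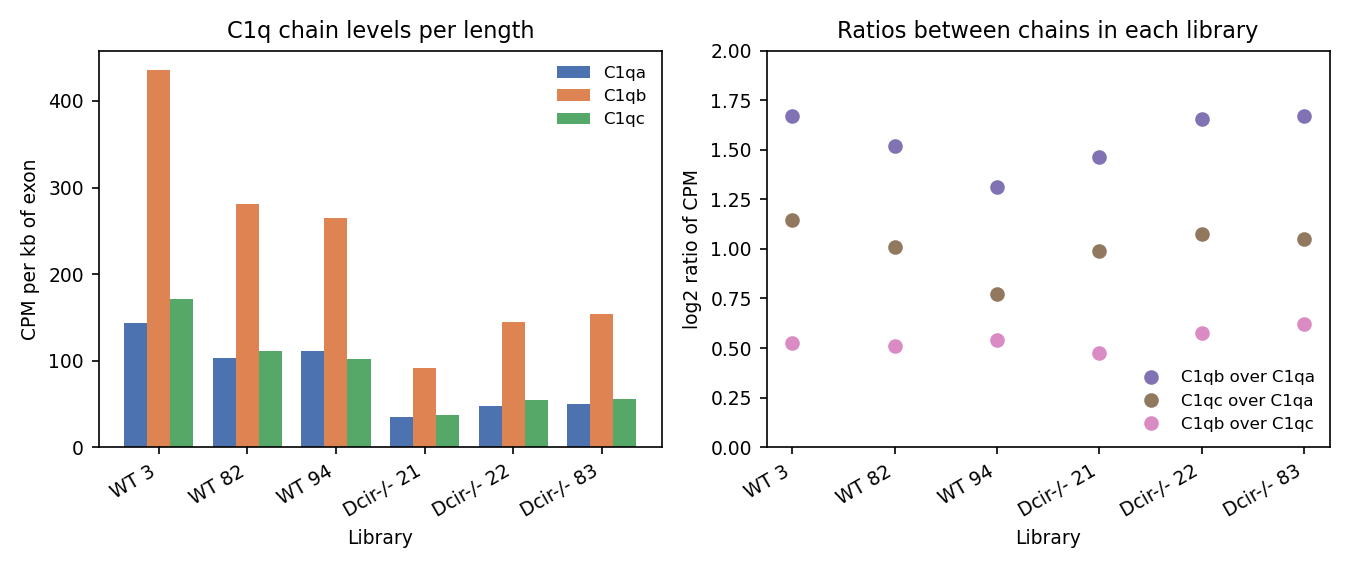
Left, level of each C1q chain in CPM per kb of exon (vertical axis, bars from 0) in each of the 6 libraries; right, log2 ratio of CPM between pairs of chains in the same libraries (points). C1qb is the tallest bar in every library, all bars are shorter in the Dcir-/- libraries, and the ratio of C1qb to C1qc stays between 0.48 and 0.62 on the log2 scale.

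C3 and Cfb also had lower means in Dcir-/- OCs, with larger SEs than the C1q chains. C3 stood at 424, 233 and 139.6 CPM in WT libraries 3, 82 and 94 and at 117, 175 and 179 CPM in Dcir-/- libraries 21, 22 and 83. WT library 94 lay below Dcir-/- libraries 22 and 83, so the groups overlap. The log2 fold change was −0.63 (SE 0.35), its 95% interval ran from −1.43 to 0.17, and the adjusted p was 0.525 by limma. It was −0.22 (adjusted p = 0.648) without WT library 3 and −1.02 (adjusted p = 0.117) without WT library 94. Cfb was the scarcest member, at 12.6, 3.57 and 3.92 CPM in WT and 2.99, 3.41 and 3.57 CPM in Dcir-/- OCs. WT library 3 alone set its difference: the log2 fold change was −0.64 (SE 0.37, adjusted p = 0.540) with that library and −0.13 without it. The other WT libraries lie just above the Dcir-/- range. Cfb also shares 79.5% of its exon bases with Gm20547, a gene model on the same strand, whose levels were 12.6, 3.77 and 3.95 CPM in WT and 3.25, 3.44 and 4.12 CPM in Dcir-/- OCs. Reads of that pair cannot be told apart.

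Cfp, which encodes properdin, had the smallest SE of the members on the log2 scale. It stood at 344, 270.2 and 298 CPM in the WT libraries and at 227, 198 and 195 CPM in the Dcir-/- libraries. Every WT library was above every Dcir-/- library, and the means were 304 ± 37.5 and 207 ± 17.6 CPM (SD, n = 3 each), a 1.47-fold difference. The log2 fold change was −0.55 (SE 0.11, 95% interval −0.79 to −0.31). Its unadjusted p was 6.88e-04, and the adjusted p of 0.0929 by limma missed the threshold. Without WT library 3 it was called, at an adjusted p of 0.0493 and a log2 fold change of −0.46. It was not called with any other library left out (adjusted p of 0.0784 to 0.377). Per kb of exon, Cfp was the member next below C1qb in WT OCs, at 156 to 198 CPM per kb against 265 to 436. In Dcir-/- OCs the pair overlapped, with Cfp at 112 to 131 CPM per kb and C1qb at 92.0 to 153 CPM per kb.

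The anaphylatoxin receptors were both lower on average and neither passed the test. C5ar1, the receptor of C5a, stood at 136, 86.7 and 84.9 CPM in WT libraries and at 45.5, 67.0 and 59.7 CPM in Dcir-/- libraries. The groups did not overlap, and the log2 fold change was −0.81 (SE 0.20, 95% interval −1.26 to −0.35) at an adjusted p of 0.163 by limma. C3ar1, the receptor of C3a, stood at 264, 152 and 119 CPM in WT libraries and at 66.9, 122 and 117 CPM in Dcir-/- libraries. Here the groups overlapped narrowly, Dcir-/- library 22 lying above WT library 94. The log2 fold change was −0.77 (SE 0.31, 95% interval −1.47 to −0.07) at an adjusted p of 0.352. With a library left out it ran from −1.02 without WT library 94 to −0.45 without WT library 3 for C3ar1, where it was also −0.50 without Dcir-/- library 21. For C5ar1 it ran from −0.93 without Dcir-/- library 22 to −0.59 without WT library 3. No such change brought either adjusted p under 0.05, the lowest being 0.0837 for C5ar1 without WT library 3. Per kb of exon in WT OCs, C3 (27.1 to 82.5 CPM per kb), C3ar1 (27.6 to 61.3) and C5ar1 (33.03 to 52.9) did not differ beyond their spread, and Cfb was the lowest member at 1.27 to 4.45 CPM per kb.

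Across the 8 members, 2 were called lower and 0 higher, beside the 0.292% of tested genes called lower and 0.149% called higher. At an unadjusted p under 0.05, 6 members were lower, beside 6.68% of tested genes. In 6 members every Dcir-/- library lay below every WT library, which held for 9.34% of tested genes, though for Cfb only by 3.573 against 3.572 CPM. All 8 means were lower in Dcir-/- OCs, beside 46.1% of tested genes. The median log2 fold change of the members was −0.79, and that of all tested genes was 0.015. Members and other lists were chosen with earlier results of these data known, so their counts beside these shares are descriptions only. The 3 C1q chains ran alike across libraries and are not separate observations. WT library 3 was the highest library for 8 of the 8 members and Dcir-/- library 21 the lowest for 7, Cfp being the exception.

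C3ar1 is 250.3 kb from Clec4a2, the deleted gene, on chromosome 6. Of the 9 other genes tested within 200 kb of C3ar1, Clec4a4 alone was called by limma, beside 0.292% of tested genes called lower. Its adjusted p was 0.0166 and its log2 fold change −0.999, with an SE of 0.11. Clec4a4 is a C-type lectin receptor gene related to Clec4a2. Its call was lost without WT library 82 (adjusted p = 0.119) or Dcir-/- library 21 (0.0659), 22 (0.0989) or 83 (0.112). In 5 of the 9, Clec4a4 among them, every Dcir-/- library lay below every WT library, beside 9.34% of tested genes. The others were the related lectin genes Clec4a1 (−0.73), Clec4a3 (−0.70) and Clec4b1 (−0.76) and the glucose transporter Slc2a3 (−0.56). The values in brackets are log2 fold changes, and the adjusted p of these genes ran from 0.223 to 0.273 by limma. Foxj2 (0.14), Necap1 (−0.03), Gm26826 (0.33) and Mir7231 (0.16), nearer to C3ar1 than those lectin genes, overlapped between groups. The C1q genes have 1 tested neighbour within 200 kb, the zinc finger gene Zbtb40, whose log2 fold change was −0.01 (SE 0.14).

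Outside the members, 48 further complement genes had been listed, of which 31 have a row in the table and 20 passed the filter. None of the 20 was called in either direction by limma. At an unadjusted p under 0.05, 4 of the 20 were lower, beside 6.68% of tested genes, and 2 were higher, beside 5.82%. Their means were lower for 10 and higher for 10, with a median log2 fold change of 0.019. Without WT library 3, 1 of them was called higher: Itgax, a subunit of complement receptor 4, at 1.01 (adjusted p = 0.00725) against 0.65 (SE 0.28, adjusted p = 0.394) with all libraries. Among recognition and activation genes of the classical and lectin pathways, the ficolin genes Fcnb and Fcna had log2 fold changes of −0.71 (SE 0.15) and −0.48 (SE 0.14). The protease gene Masp2 had 0.29 (SE 0.12) and the C2 gene −0.14 (SE 0.16). The genes C4a and C4b were scarce, at 0.105 to 0.815 CPM, as were the C1 protease genes C1s1 and C1s2, at 0 to 0.256 CPM. C1ra, which encodes the other C1 protease, was at 0.875 to 2.38 CPM in WT and 0.415 to 0.926 CPM in Dcir-/- OCs, below the filter.

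Regulators and receptors were mixed. The C5a receptor gene C5ar2 was at −0.79 on the log2 scale (SE 0.19, adjusted p = 0.160), close to that of C5ar1, at 3.67 to 6.31 CPM in WT and 1.87 to 2.40 CPM in Dcir-/- OCs. Cd55, a membrane inhibitor of convertases, had −0.71 (SE 0.16, adjusted p = 0.138) at levels of 0.526 to 2.14 CPM. The membrane regulator genes Cr1l, Cd46 and Cd59b had −0.16, 0.20 and 0.09. The soluble regulator clusterin (Clu) had −0.36 and C8g, of the terminal pathway, 0.17. The receptor gene Cd93, once proposed to bind C1q, had −0.72 (SE 0.37). Itgb2, the common subunit of complement receptors 3 and 4, was at 636 to 804 CPM with 0.16 (SE 0.09).

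**Figure D3:**
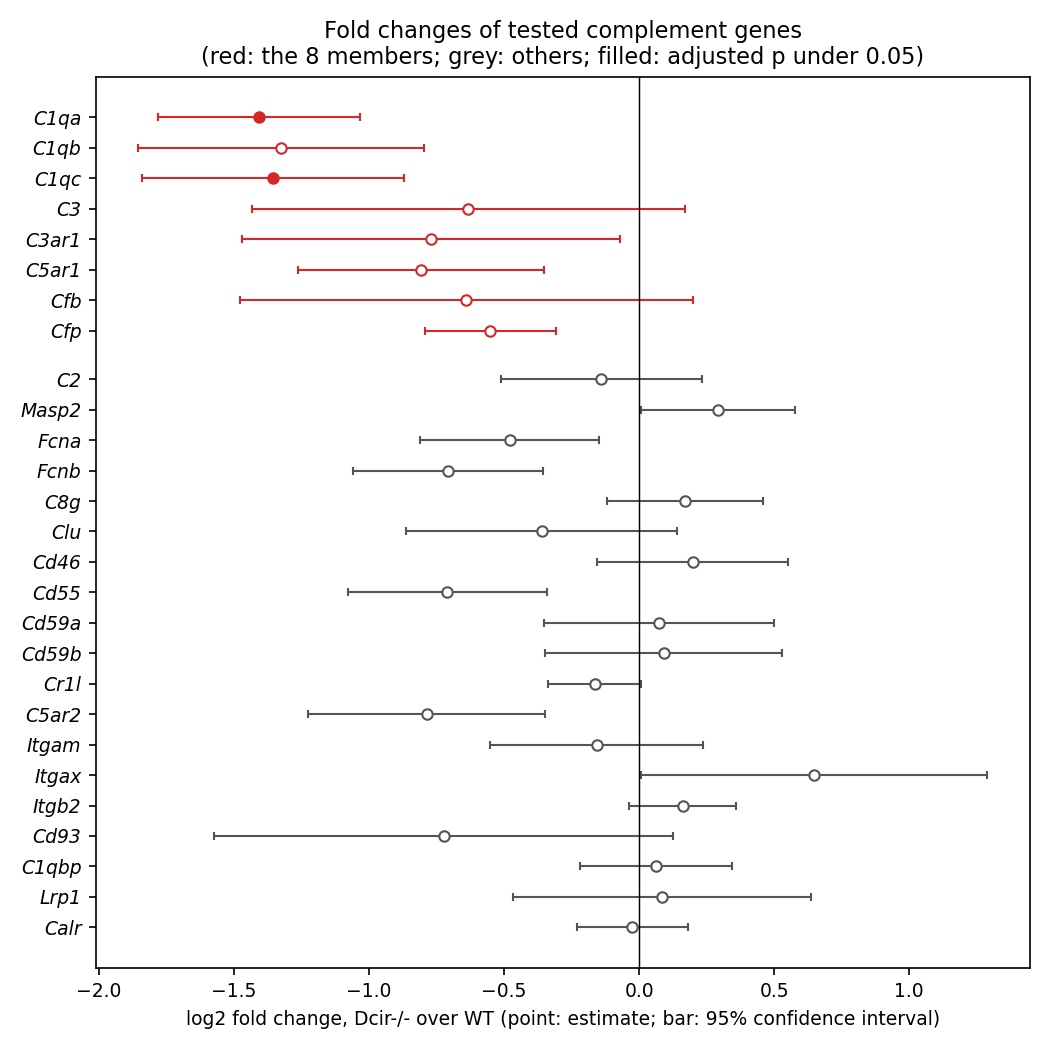
Log2 fold change of Dcir-/- over WT OCs (horizontal axis) with its 95% confidence interval for the 8 members (red) and 19 of the 20 other tested complement genes (grey), filled where the adjusted p was under 0.05. C1qa and C1qc are the filled points, the intervals of C3 and Cfb cross 0, and the grey points lie on both sides of 0.

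The profile of the C1q chains over the 6 libraries was compared with that of every gene of at least 10 CPM on average, 9701 in all. Centred on its own mean, the average log2 level of the 3 chains was 1.07, 0.50 and 0.47 in WT libraries 3, 82 and 94. It was −1.07, −0.52 and −0.46 in Dcir-/- libraries 21, 22 and 83. The measure of likeness was the root mean square distance between centred log2 profiles, whose median over all ranked genes was 0.757. The chains themselves lay at 0.040 (C1qc), 0.053 (C1qb) and 0.081 (C1qa). The 8 nearest other genes were Wfdc17 (0.101), Aif1 (0.110), Mgst1 (0.131), Slc40a1 (0.152), Fam43a (0.162), BE692007 (0.164), Ly86 (0.164) and Ifi47 (0.165). Wfdc17 encodes a secreted protein of macrophages, Aif1 the macrophage marker IBA1, Mgst1 a glutathione transferase, Slc40a1 the iron exporter ferroportin, Ly86 the partner of CD180 and Ifi47 an interferon-inducible GTPase. Of the other members, C5ar1 ranked 63rd of all genes, C3ar1 113th, C3 293rd and Cfp 367th, with distances of 0.288, 0.347, 0.469 and 0.497. This likeness is a description over 6 libraries and holds the difference between genotypes within it.

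**Figure D4:**
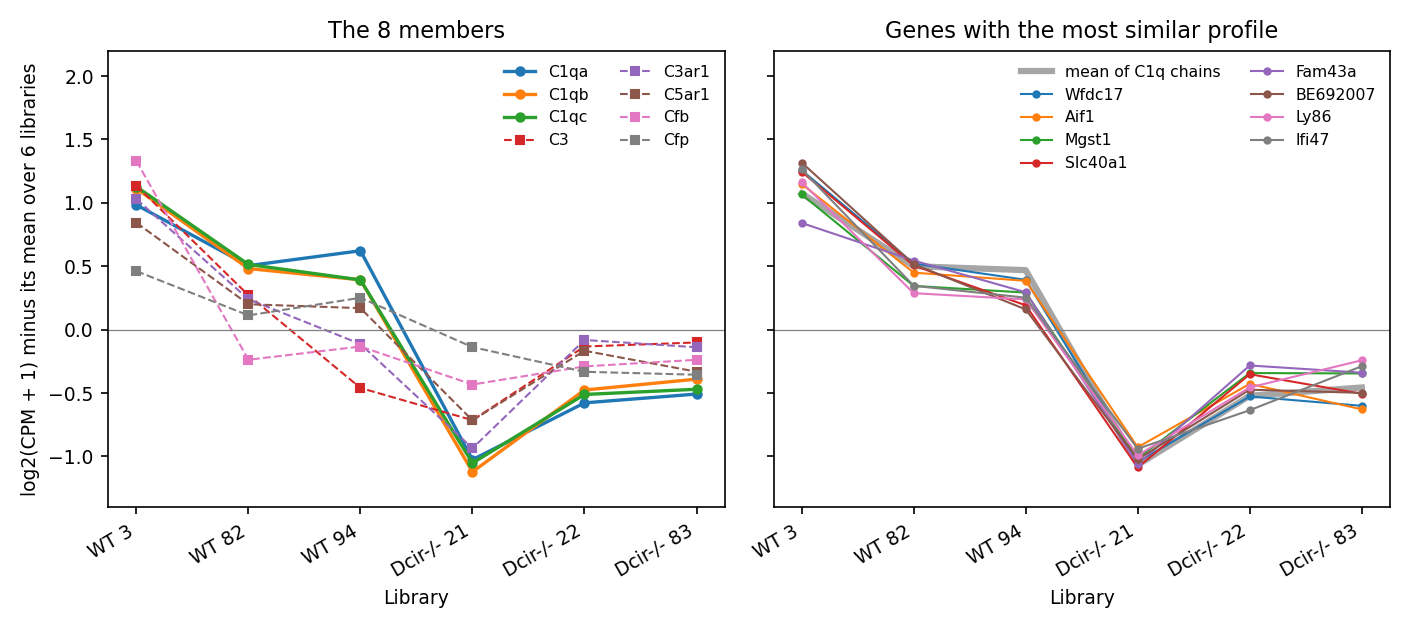
Level as log2(CPM + 1) minus the gene's mean over the 6 libraries (vertical axis) in each library (horizontal axis); lines only join the points of a gene. Left, the 8 members, with the C1q chains as solid lines. Right, the mean of the C1q chains (grey) and the 8 genes nearest to it. The C1q mean runs from 1.07 in WT library 3 to −1.07 in Dcir-/- library 21.

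Markers of macrophages, a main source of C1q, also had lower means. Of 14 tested macrophage markers, all 14 had a lower mean in Dcir-/- OCs, beside 46.1% of tested genes, with a median log2 fold change of −0.81. Marco and Aif1, 2 of the 14, were called lower, beside 0.292% of tested genes. In 8 of the 14, every Dcir-/- library lay below every WT library, beside 9.34% of tested genes. The most abundant ones were split. Csf1r, the M-CSF receptor, and Cd68, a lysosomal glycoprotein, both also expressed by OCs, were at −0.01 (SE 0.10) and −0.01 (SE 0.08). Adgre1, which encodes the F4/80 antigen, was at −0.72 (SE 0.32, adjusted p = 0.404), with 777, 417 and 282 CPM in WT and 217, 301 and 308 CPM in Dcir-/- OCs. The summed level of the list was 4137 to 5603 CPM in WT and 3999 to 4281 CPM in Dcir-/- OCs, highest in WT library 3. The calls of Aif1 and Marco were lost without WT library 82 (adjusted p = 0.138 and 0.122) and without Dcir-/- library 21 (both 0.228), 22 (0.148 and 0.222) or 83 (0.232 and 0.117), and that of Marco also without WT library 94 (0.0640). Aif1 was also not called with a pseudocount of 5 CPM, a filter of 5 CPM, robust variance or no trend (adjusted p of 0.0543 to 0.0869). Marco was not called with a pseudocount of 0.1 or 5 CPM, no trend or array weights (adjusted p of 0.0501 to 0.113), and was not tested under the filter of 5 CPM. Maf, singled out from the list after its values were seen, encodes a transcription factor of macrophages. It stood at 170.1, 119 and 93.2 CPM in WT and at 48.4, 71.8 and 61.3 CPM in Dcir-/- OCs, with a log2 fold change of −1.04 (SE 0.22). The groups did not overlap, and the adjusted p of 0.114 by limma missed the threshold. The part of these macrophage genes in the C1q difference was not tested.

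Among markers of other cells, 13 neutrophil genes were tested, all lower on average, beside 46.1% of tested genes. Of the 13, 4 were called lower, beside 0.292% of tested genes: Ngp, S100a9, Ltf and S100a8. The summed level of the list was 657 to 821 CPM in WT and 380 to 474 CPM in Dcir-/- OCs. Those 4 calls were lost without WT library 82 (adjusted p of 0.101 to 0.122) and without Dcir-/- library 22 (0.170 to 0.187) or 83 (0.199 to 0.239). Without Dcir-/- library 21 only that of Ltf stood (adjusted p = 0.0445, the others 0.0659), and without WT library 94 those of S100a9 (0.0519) and Ltf (0.0604) were lost. With no trend all 4 were lost (adjusted p of 0.0755 to 0.0869), with array weights those of S100a8, S100a9 and Ltf (0.0591 to 0.0819), with the filter of 5 CPM those of S100a9 and Ltf (0.0520 and 0.0543), and with a pseudocount of 5 CPM that of Ltf (0.0507). Among 5 tested markers of megakaryocytes and platelets 1 was called lower, Pf4, and this call was lost only without Dcir-/- library 22 (adjusted p = 0.0528). None was called among 5 dendritic cell, 3 B cell, 2 T cell, 1 stromal and 12 OC markers. The summed levels of markers of NK cells and of erythroid cells stayed at 0.0646 to 0.647 and 0.151 to 0.591 CPM, and none passed the filter. The part of these cell types in the values of the members was not tested.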

How the data were processed

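RNA-seq values of OCs were read from 1 deposited table with a column for each of the 3 WT and 3 Dcir-/- libraries, mapped by genotype and number in the labels. Upstream, the authors used Trim Galore 0.6.6 for trimming, HISAT2 2.2.0 for alignment to mm10, Rsubread for exonic counts per gene and edgeR for normalization. The deposited sample values are library-size adjusted counts, treated as a signal: 95.8% to 99.8% of values per library are not whole, so no count test was run. Column totals lie between 33035020 and 34068309 because of that adjustment, the depth is unknown, and precision was judged from the spread between libraries. The authors' log2 fold change and FDR columns of the same comparison were not used. The strand setting of the counting is not given in the sources used here.

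CPM is the adjusted value over the mean column total (1 CPM is 33.6 adjusted counts). Genes of at least 1 CPM in 3 libraries were fitted on log2(CPM + 1) by limma 3.58.1 (R 4.3.3, trended variance), a scale that understates changes of low genes, with genotype only and Benjamini-Hochberg adjustment at 0.05. Fold changes run as Dcir-/- over WT. The test was tried on simulated data first. Levels per kb used the summed exon length in GENCODE M21, to which 21449 gene identifiers matched, and promoters came from RefSeq. The text names the members, other complement genes with the smallest adjusted p of their role group, the 8 genes of nearest profile, tested neighbours within 200 kb, Clec4a2, and the most abundant markers of the lists it describes. Other named genes were chosen after their values were seen, and a few results are not reported here. The members and lists were chosen with earlier results of these data known. Alternatives covered pseudocount, filter, scaling, variance model, weights, threshold and each library left out.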

Additional observations from a re-analysis of the deposited data

How the results depend on the processing

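No member changed the sign of its log2 fold change under any alternative run. Of the 127 alternative values of the members, 110 stayed on their side of the threshold, 13 lost a call and 4 gained one. Members called lower fell from 2 to 1, C1qc being lost, with a pseudocount of 5 CPM, a filter of 5 CPM, robust variance, no trend or array weights. At a threshold of 0.1 there were 4, with C1qb and Cfp added. Leaving out each library gave 0 to 4. C1qa kept its call in the 10 alternatives that used all libraries, with adjusted p of 0.0123 to 0.0366 by limma. Cfb was not tested under the filter of 5 CPM. Genes called lower over all were 41, and 27 with a pseudocount of 5 CPM, 22 with the filter of 5 CPM, 19 with no trend, 25 with array weights, 73 at a threshold of 0.1 and 1 to 87 with a library left out. Genes called higher were 21, and 11 with the filter of 5 CPM, 39 at a threshold of 0.1 and 1 to 39 with a library left out. Other complement genes called higher were 0, and 0 to 1 with a library left out. The difference in the log2 ratio of C1qc to C1qa ran from −0.041 to 0.15 with a library left out, negative only without WT library 94. Array weights were estimated without full convergence. No scaling moved the median log2 fold change of all genes by over 0.1. The causes were not tested. No paired analysis was possible because the groups share no replicate number. With 3 libraries per group of adjusted values and unknown depth, low genes such as Cfb are the least certain.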

Other observations

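Interferon-stimulated genes, a list of antiviral and GTPase genes induced by interferons, were described by their counts only. All 19 were tested and all 19 had a lower mean, beside 46.1% of tested genes. Their median log2 fold change was −1.21, beside 0.015 over all tested genes. None was called by limma after Benjamini-Hochberg adjustment, 17 were lower at an unadjusted p under 0.05, beside 6.68% of tested genes, and 16 were lower with no overlap between groups, beside 9.34%. Their summed level was 1016, 476 and 446 CPM in WT libraries 3, 82 and 94 and 289, 357 and 374 CPM in Dcir-/- libraries 21, 22 and 83. WT library 3 was the highest and Dcir-/- library 21 the lowest, as for the C1q chains. Leaving out each library, an alternative chosen after seeing the data, gave medians of −1.56 without WT library 94 to −0.68 without WT library 3. Without WT library 3, 18 of these genes were tested, 17 had a lower mean and 2, Bst2 and Irf7, were called lower, beside 0.625% of all genes tested then. With any other library left out 0 were called. At an unadjusted p under 0.05, 8 were lower without Dcir-/- library 21, beside 3.89% of all genes tested then, and 15 to 17 without each of the others.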
